A study of Rattus norvegicus with 8 samples.

Results

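Caspases are proteases that carry out apoptosis, and cells hold them as inactive precursors. In the mitochondrial route, cytochrome c released from mitochondria binds Apaf1, the scaffold of the apoptosome, which recruits and activates the initiator caspase-9. In the death receptor route, adaptor proteins bring caspase-8 to the receptor. Xiap and Birc2 are inhibitor of apoptosis proteins, and Diablo (also called Smac) leaves the mitochondria to displace caspases from them. Activity in this system depends mostly on cleavage, release and protein binding, none of which a transcript level shows.

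The 9 genes described here are the initiator caspases Casp2, Casp8 and Casp9, the caspases Casp6 and Casp12, the apoptosome gene Apaf1, the inhibitors Xiap and Birc2, and Diablo. They were chosen by gene symbol, each matched 1 row of the 31699 rows of the deposited table, and all 9 were among the 13103 genes tested. RNA-seq was performed in annulus fibrosus cells (AFCs), from the outer ring of the intervertebral disc of Sprague Dawley rats, after cyclic mechanical stretch (CMS). The Lv-Ctrl group received the empty lentiviral vector pLVX-shRNA-Puro and the Lv-Piezo1 group received pLVX-shRNA-Puro-Piezo1, which carries a short hairpin RNA against the mechanosensitive channel Piezo1, with 4 samples in each group. Both groups were stretched, so the effect of CMS itself was not measured, and cells of each isolation were pooled from several rats and passaged before infection. The rats' age is given by the study for its animal model only.

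Values are TPM, the abundance of a transcript per length and relative to the total of its sample. TPM keeps no sequencing depth, so the depth is unknown and the error of a value is the spread of the 4 samples. Groups were compared with limma on log2(TPM + 1), a scale that understates changes at low TPM, and p-values were adjusted by Benjamini-Hochberg across every gene tested. The median log2 fold change of all tested genes was 0.14 toward the Lv-Piezo1 group, and values relative to it are given where they matter. The targeted gene, Piezo1, had 30.1 ± 2.67 TPM in the Lv-Ctrl group and 39.4 ± 1.75 TPM in the Lv-Piezo1 group (SD, n = 4 each), a rise that went against the label (adjusted p = 8.6e-04 from limma), so groups are called by their labels throughout. The study reports that the knockdown by this shRNA was verified, and that result is not compared here. Of 9 annulus fibrosus and fibroblast markers, 8 reached the limit for testing, 4 of them were higher and 3 lower in the Lv-Piezo1 group, and the tendon marker Tnmd was at or near 0. The summed TPM of these markers was 7186 to 8080 in the Lv-Ctrl samples and 10543 to 11278 in the Lv-Piezo1 samples. Most of this sum was Col1a1 (means of 3282 and 5835 TPM) and Col1a2 (2316 and 3795 TPM), higher as were Col5a1 and Scx. The 3 lower markers were Dcn (1456 and 519 TPM), Fmod (68.4 and 34.0 TPM) and Mkx (25.4 and 14.6 TPM), so the sum does not describe every marker. Marker counts use an adjusted p below 0.05, at which 41.9% of all tested genes were higher and 16.3% lower. The summed TPM of 8 smooth muscle and pericyte markers was 304 to 316 in the Lv-Ctrl samples and 4377 to 4557 in the Lv-Piezo1 samples, with 6 tested and all 6 higher. The sum of 6 macrophage and leukocyte markers was 21.5 to 22.9 and 36.02 to 41.7 TPM, with Cd68 and Cd14 higher, Adgre1 at 0 in every sample and Ptprc at or near 0. For 5 endothelial markers the sum was 0.34 to 0.59 and 0.39 to 0.62 TPM. The sum of 7 nucleus pulposus and chondrocyte markers, of which 6 were listed, was 32.9 to 39.4 and 52.7 to 56.2 TPM, with 3 tested, 2 of them higher, and Tbxt at 0 in every sample. Cd68 (means of 0.955 and 12.3 TPM) and Comp, among these 2 (0.738 and 2.86 TPM), reached the limit for testing only through the Lv-Piezo1 group. Their count as higher was therefore favoured by that limit. The part of these marker differences in the values below was not tested, and in bulk RNA fewer cells of a type and less RNA per cell cannot be told apart.

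Apaf1 and Casp9 rose and Xiap and Diablo fell in the Lv-Piezo1 group, each without overlap between the groups. Differences in Casp2, Casp6, Casp8, Casp12 and Birc2 did not pass the test. At an adjusted p below 0.05, 2 of the 9 genes were higher, where 41.9% of all tested genes were, and 2 were lower, where 16.3% of all tested genes were. In either direction this made 4 of 9, against 58.2% of all tested genes. The groups did not overlap in 4 of the 9 genes, 2 of them higher and 2 lower, and in 54.2% of all tested genes (39.8% higher, 14.5% lower). None of the 9 genes also changed by 1 or more in log2 units in limma, as 7.67% of all tested genes did (4.91% higher, 2.76% lower), while 5 of the 9 had an unadjusted p below 0.05, beside 62.3% of all tested genes. The median log2 fold change of the 9 genes was -0.09, beside 0.14 for all tested genes.

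**Figure D1:**
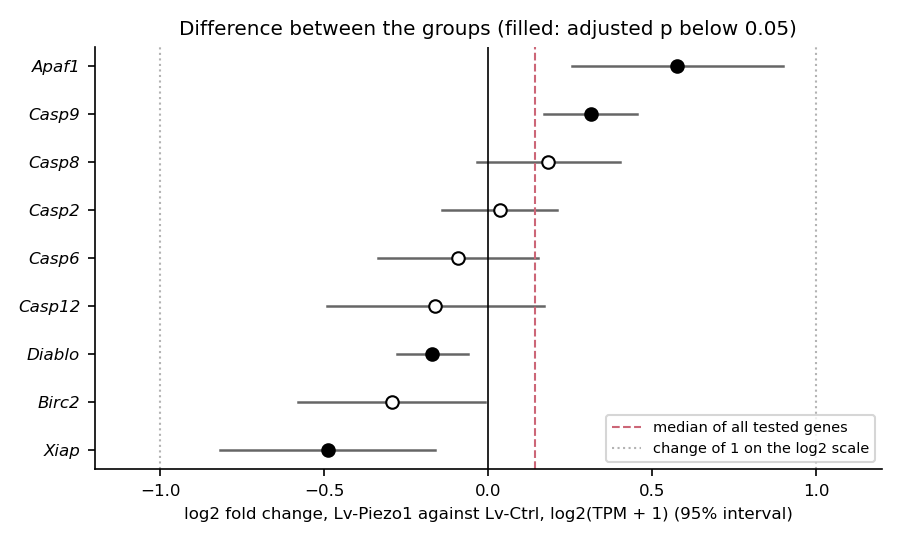
Log2 fold change of each of the 9 genes (horizontal axis, log2(TPM + 1) scale, Lv-Piezo1 against Lv-Ctrl) with its 95% interval, filled points having an adjusted p below 0.05 in limma. Apaf1 (0.58) and Casp9 (0.31) lay above the dashed median of all tested genes, Xiap (-0.49) and Diablo (-0.17) lay below 0, and no interval reached the dotted lines at a change of 1.

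The promoters of Apaf1 and Casp9 are shown because these were the genes of the set that rose together. The sequences are the 250 bases before the gene start of each in RefSeq, assembly GRCr8, read on the strand of the gene. Capitals mark each GC box, searched as GGGCGG on both strands. The Apaf1 window is chr7:27466773-27467022 on the minus strand and the Casp9 window is chr5:159391824-159392073 on the plus strand.
Apaf1: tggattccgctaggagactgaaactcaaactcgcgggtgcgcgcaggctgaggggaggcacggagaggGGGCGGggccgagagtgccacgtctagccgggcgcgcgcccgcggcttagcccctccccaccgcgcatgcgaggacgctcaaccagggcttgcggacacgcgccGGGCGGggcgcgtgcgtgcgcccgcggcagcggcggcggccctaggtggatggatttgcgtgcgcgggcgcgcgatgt
Casp9: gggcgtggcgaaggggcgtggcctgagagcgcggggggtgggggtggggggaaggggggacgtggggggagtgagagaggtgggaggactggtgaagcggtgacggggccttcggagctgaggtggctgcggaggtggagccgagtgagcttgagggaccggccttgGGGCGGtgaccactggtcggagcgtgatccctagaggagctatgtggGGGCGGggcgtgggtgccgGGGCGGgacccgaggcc
The Apaf1 window held 2 GC boxes and the Casp9 window held 3. RefSeq windows were found for 7 of the 9 genes, and 5 of these 7 held at least 1 GC box, among them Casp2, Casp6 and Diablo, whereas those of Casp12 and Birc2 held none. Of all 33469 windows of this length, 30.5% held a GC box. These windows were not filtered by gene type or expression, so this share is not a matched background for the 9 genes. A match of letters is a description, and the genes with a GC box included both that rose, Diablo, which fell, and Casp2 and Casp6, which did not pass the test.

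Apaf1 (ENSRNOG00000008022) had the largest rise of the 9 genes on the log2(TPM + 1) scale. It measured 4.07, 3.24, 2.20 and 3.03 TPM in Lv-Ctrl replicates 1 to 4. In Lv-Piezo1 replicates 1 to 4 it measured 4.87, 4.41, 5.16 and 6 TPM. Every Lv-Piezo1 sample lay above every Lv-Ctrl sample, and replicate 3 was the lowest of the Lv-Ctrl group. The means were 3.14 ± 0.768 and 5.11 ± 0.669 TPM (SD, n = 4 each), 63.0% higher in the Lv-Piezo1 group, and the difference on the log2 scale was 0.58 (adjusted p = 0.0070 from limma, with a standard error of 0.14), and 0.43 relative to the median of all tested genes. Over all 70 relabelings of the samples, taken as independent, the exact permutation test (two-sided) gave p = 0.029, the smallest it can give here. Any gene whose groups do not overlap gets this value, so it restates the separation. The value was 0.43 with median-ratio scaling and 0.36 with quantile normalization (adjusted p = 0.016 and 0.028 from limma). In the values as deposited, a larger absolute change was found in 21.1% of all tested genes.

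Casp9 (ENSRNOG00000012944), the initiator caspase that the apoptosome activates, rose by a smaller amount with a smaller spread. It measured 9.65, 9.26, 8.29 and 8.40 TPM in the Lv-Ctrl samples and 11.5, 10.5, 11.5 and 11.6 TPM in the Lv-Piezo1 samples. The lowest Lv-Piezo1 sample, replicate 2, was still above the highest Lv-Ctrl sample, replicate 1. The means were 8.90 ± 0.662 and 11.3 ± 0.54 TPM (SD, n = 4 each), 26.7% higher in the Lv-Piezo1 group. Its log2 fold change was 0.31 (adjusted p = 0.0024 from limma, with a standard error of 0.06) and 0.17 relative to the median of all tested genes. It was 0.15 with median-ratio scaling and 0.13 with quantile normalization, with adjusted p = 0.027 and 0.036 from limma. In RefSeq, Casp9 overlaps Cela2a, which was listed at 0 in all 8 samples.

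Casp8 (ENSRNOG00000012331), the initiator of the death receptor route, had overlapping values in the groups. It measured 10.2, 10.9, 8.70 and 10.8 TPM in the Lv-Ctrl samples and 9.93, 11.8, 13.4 and 11.6 TPM in the Lv-Piezo1 samples. Replicate 1 of the Lv-Piezo1 group lay below 3 of the 4 Lv-Ctrl samples, and the other Lv-Piezo1 samples lay above all of them. Its change of 0.18 in log2 units had a 95% interval of -0.03 to 0.40 (adjusted p = 0.13 from limma). Without Lv-Piezo1 replicate 1 it was 0.25 (adjusted p = 0.045 from limma), whereas it was 0.02 with median-ratio scaling and 0.00122 with quantile normalization. Casp8 overlaps its regulator Cflar in RefSeq, and the use of strand in the counting was not stated, so reads of a shared stretch could count for either gene.

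Casp2 (ENSRNOG00000016707), an initiator caspase activated on a platform with Pidd1 and Cradd, was nearly equal in the groups. It measured 4.76, 4.72, 4.52 and 4.43 TPM in the Lv-Ctrl samples and 4.52, 4.31, 4.72 and 5.47 TPM in the Lv-Piezo1 samples. The highest and the lowest of the 8 values were both Lv-Piezo1 samples. Its change in log2 units was 0.03 with a 95% interval of -0.14 to 0.21 (adjusted p = 0.73 from limma). This direction was not stable, since the value was -0.02 without Lv-Piezo1 replicate 4, -0.11 with median-ratio scaling and -0.18 with quantile normalization (adjusted p = 0.040 from limma for the last).

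Casp6 (ENSRNOG00000052613), a caspase that cleaves nuclear lamins, did not separate the groups. It measured 10.5, 8.37, 7.88 and 10.3 TPM in the Lv-Ctrl samples and 9.34, 9.58, 7.73 and 7.75 TPM in the Lv-Piezo1 samples. Each group held a pair of higher and a pair of lower samples. Between the groups, the log2 fold change was -0.09 with a 95% interval of -0.34 to 0.15 (adjusted p = 0.49 from limma). It was -0.25 with median-ratio scaling and -0.28 with quantile normalization (adjusted p = 0.071 and 0.058 from limma), and from -0.16 to -0.036 when single samples were left out.

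Casp12 (ENSRNOG00000033434), a caspase tied to stress of the endoplasmic reticulum in rodents, had the widest relative spread in the Lv-Piezo1 group, with a coefficient of variation of 23.5%. It measured 6.91, 6.04, 4.74 and 6.49 TPM in the Lv-Ctrl samples and 4.82, 4.56, 4.75 and 7.21 TPM in the Lv-Piezo1 samples. Replicate 4 of the Lv-Piezo1 group was the highest of all 8 samples, while the other Lv-Piezo1 samples lay close to the lowest Lv-Ctrl sample. With all samples, the log2 fold change was -0.16 with a 95% interval of -0.49 to 0.17 (adjusted p = 0.37 from limma). Without Lv-Piezo1 replicate 4 it was -0.29 (adjusted p = 0.059 from limma), and with quantile normalization it was -0.36 (adjusted p = 0.033 from limma).

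Xiap (ENSRNOG00000006967), which binds and blocks caspase-9, was the lowest expressed of the 9 genes and fell in the Lv-Piezo1 group. It measured 2.41, 1.98, 1.23 and 1.79 TPM in the Lv-Ctrl samples and 1.04, 1.06, 0.83 and 1.11 TPM in the Lv-Piezo1 samples. The groups did not overlap, although replicate 3 of the Lv-Ctrl group came within a small distance of the highest Lv-Piezo1 sample. The means were 1.85 ± 0.489 and 1.01 ± 0.124 TPM (SD, n = 4 each), and the ratio of the means was 0.545. The log2 fold change was -0.49 (adjusted p = 0.016 from limma, with a standard error of 0.14). The exact two-sided permutation test gave p = 0.029, which restates the lack of overlap. With a pseudocount of 0.1 in place of 1 the log2 fold change was -0.79 (adjusted p = 0.015 from limma), since the pseudocount weighs most on low values. It was -0.59 with median-ratio scaling and -0.73 with quantile normalization (adjusted p = 0.0049 and 0.0012 from limma), a larger size than that of Apaf1 under either.

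Birc2 (ENSRNOG00000010602), the ubiquitin ligase cIAP1 that acts at the tumour necrosis factor receptor, was spread widely in both groups. It measured 12.6, 12.6, 16.0 and 17.2 TPM in the Lv-Ctrl samples and 10.4, 10.0, 13.4 and 12.9 TPM in the Lv-Piezo1 samples. Replicates 3 and 4 of the Lv-Piezo1 group lay above replicates 1 and 2 of the Lv-Ctrl group. The log2 fold change was -0.29 with a 95% interval of -0.58 to -0.01 (adjusted p = 0.072 from limma). With the replicate number as a block it passed (adjusted p = 0.0062 from limma), but no source used here ties equal numbers to the same repeat. Against the median of all tested genes it was -0.44, and the log2 fold change was -0.46 after median-ratio scaling (adjusted p = 0.017 from limma) and -0.47 with quantile normalization (adjusted p = 0.014 from limma). Birc2 lies beside its paralog Birc3 in RefSeq, and how the counting treated reads that match both was not stated.

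Diablo (ENSRNOG00000029197), the antagonist of the inhibitors, was by far the highest expressed of the 9 genes and fell. It measured 66.3, 65.2, 73.0 and 71.8 TPM in the Lv-Ctrl samples and 62.6, 60.0, 63.6 and 58.6 TPM in the Lv-Piezo1 samples. All Lv-Piezo1 samples lay below all Lv-Ctrl samples. The means were 69.1 ± 3.92 and 61.2 ± 2.31 TPM (SD, n = 4 each), which fell by 11.4%. This was a log2 fold change of -0.17 (adjusted p = 0.013 from limma, with a standard error of 0.05). The exact two-sided permutation test gave p = 0.029, which restates the lack of overlap. Relative to the median of all tested genes the value was -0.31, and it was -0.35 with median-ratio scaling and -0.26 with quantile normalization (adjusted p = 0.0022 and 0.0024 from limma). In the values as deposited, a larger absolute change was found in 65.9% of all tested genes. Diablo overlaps B3gnt4 in RefSeq, which had at most 0.54 TPM in any sample.

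**Figure D2:**
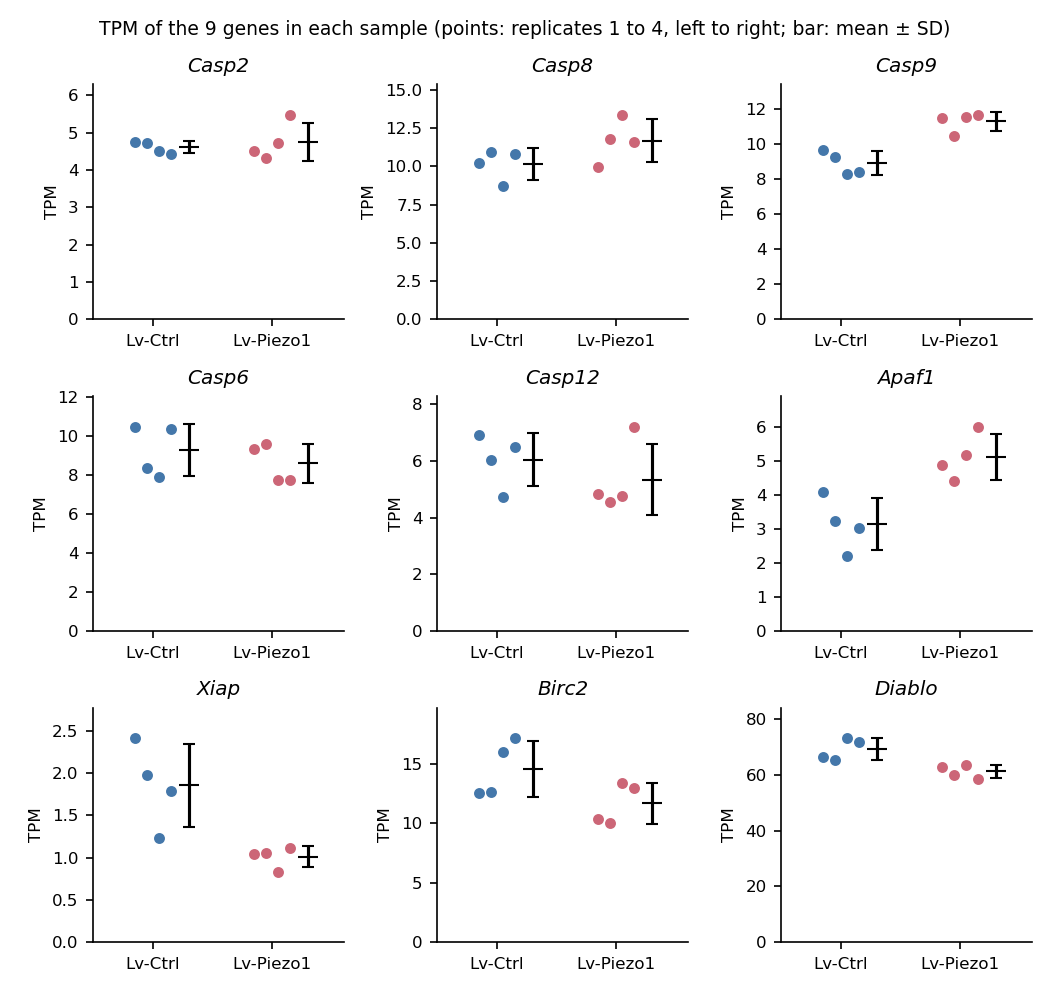
TPM (vertical axes, each from 0) of the 9 genes in the Lv-Ctrl samples (blue) and the Lv-Piezo1 samples (red), with points for replicates 1 to 4 from left to right and bars for the mean ± SD (n = 4). The groups separate for Casp9, Apaf1, Xiap and Diablo and overlap for the other genes, with Casp12 at 7.21 TPM in Lv-Piezo1 replicate 4.

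The order of the levels on the TPM scale, which accounts for length, ran from Diablo down to Xiap in both groups. In the Lv-Ctrl group Diablo was followed by Birc2, Casp8, Casp6, Casp9, Casp12, Casp2, Apaf1 and Xiap. The sample ranges of neighbours overlapped for Casp8 and Casp6, for Casp6 and Casp9, for Casp12 and Casp2, and for Apaf1 and Xiap. In the Lv-Piezo1 group Casp9 stood above Casp6, and Apaf1 above Casp2. There the neighbours Birc2 and Casp8, Casp8 and Casp9, Casp12 and Apaf1, and Apaf1 and Casp2 overlapped. The ranges of Apaf1 and Xiap overlapped in the Lv-Ctrl samples, at 2.20 to 4.07 and 1.23 to 2.41 TPM. They were apart in the Lv-Piezo1 samples, at 4.41 to 6 and 0.83 to 1.11 TPM.

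Samples also shared features within a group. Replicate 3 of the Lv-Ctrl group was the lowest of its group for 6 of the 9 genes, and for 48.8% of all tested genes. Replicate 4 of the Lv-Piezo1 group was the highest of its group for 5 of the 9 genes and for 42.7% of all tested genes. Replicate 1 of the Lv-Ctrl group was the highest of its group for 6 of the 9 genes, beside 30.8% of all tested genes. Lv-Ctrl replicate 3 also had the lowest median-ratio size factor of the 8 samples, 0.893. Without Lv-Ctrl replicate 3, the log2 fold change was 0.46 for Apaf1 and -0.60 for Xiap (adjusted p = 0.010 and 0.0024 from limma). Without Lv-Piezo1 replicate 4, the values were 0.51 and -0.51 (adjusted p = 0.022 and 0.025 from limma).

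Ratios of transcripts within a sample do not move with the scaling of that sample. They were computed for pairs whose products bind each other or share a role, and are given without a test because the transcripts were tested singly. The ratio of Casp9 to Xiap was 4.00, 4.68, 6.74 and 4.69 in the Lv-Ctrl samples and 11.0, 9.88, 13.9 and 10.5 in the Lv-Piezo1 samples. The groups did not overlap, which follows from the separation of Casp9 upward and of Xiap downward and adds no further result. The mean went from 5.03 ± 1.19 to 11.3 ± 1.77 (SD, n = 4 each). The ratio of Diablo to Xiap was 27.5, 32.9, 59.4 and 40.1 in the Lv-Ctrl samples and 60.2, 56.6, 76.6 and 52.8 in the Lv-Piezo1 samples. Here replicate 3 of the Lv-Ctrl group, where Xiap was lowest, lay among the Lv-Piezo1 samples.

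The ratio of Casp8 to Cflar, whose product blocks caspase-8 at the receptor, was 0.698, 0.733, 0.617 and 0.699 in the Lv-Ctrl samples and 0.766, 0.917, 1.02 and 0.791 in the Lv-Piezo1 samples. These groups did not overlap, although neither transcript alone passed the test, with a log2 fold change of -0.13 for Cflar (adjusted p = 0.067 from limma). Reads of the stretch that Casp8 and Cflar share could count for either gene, which would move this ratio. How often the ratios of other gene pairs separate the groups was not computed. Cflar passed as lower with median-ratio scaling (-0.30), with quantile normalization (-0.31) and without mitochondrially encoded genes (-0.15). It also passed as lower without Lv-Ctrl replicate 3 (-0.15) and without Lv-Piezo1 replicate 4 (-0.17). The ratio of Diablo to Birc2 was 4.79 ± 0.51 and 5.32 ± 0.792, and that of Xiap to Birc2 was 0.132 ± 0.0514 and 0.0883 ± 0.0195, with overlap in both. The ratio of Casp9 to Apaf1 was 2.94 ± 0.59 in the Lv-Ctrl group and 2.23 ± 0.202 in the Lv-Piezo1 group (SD, n = 4 each), also with overlap.

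**Figure D3:**
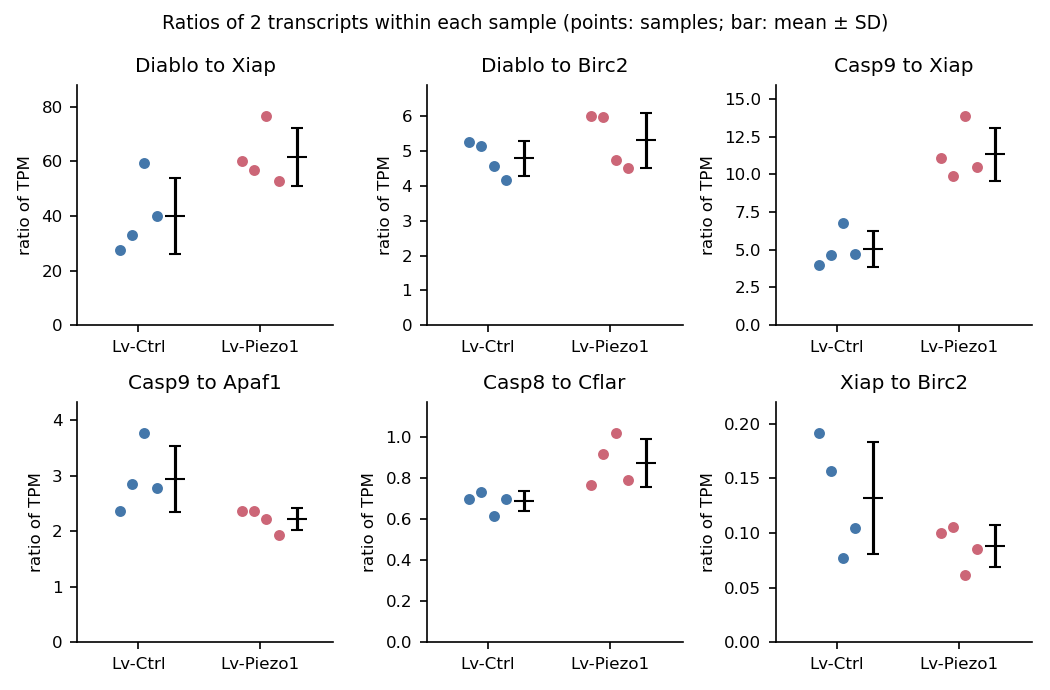
Ratio of the TPM of a pair of transcripts (vertical axes, from 0) within each Lv-Ctrl sample (blue) and Lv-Piezo1 sample (red), with bars for the mean ± SD (n = 4). The groups separate for Casp9 to Xiap, whose transcripts each separate the groups in opposite directions. They also separate for Casp8 to Cflar, genes that overlap each other in RefSeq, and overlap for the other pairs.

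Other genes of caspase activation were grouped into 6 lists with 48 genes, of which 40 were tested. At an adjusted p below 0.05 in limma, 19 of the 40 rose and 4 fell, where 41.9% of all tested genes rose and 16.3% fell, and the median log2 fold change of the 40 genes was 0.14, equal to that of all tested genes to this precision. With median-ratio scaling 11 rose and 10 fell, and with quantile normalization 15 rose and 10 fell, so the counts below are given with this limit. All tested genes then had a median log2 fold change of -0.019 and -0.0036, and 7321 and 7336 of them passed in either direction. Their shares of rises and of falls were not computed under these scalings.

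Among death receptors, ligands and adaptors, 7 of the 10 tested genes rose (41.9% of all tested genes did), and the others did not pass the test. The largest rises were those of Fadd, the adaptor that binds caspase-8, and Tnfrsf10b, the receptor of the ligand TRAIL. Fadd measured 2.82, 2.42, 2.22 and 2.72 TPM in the Lv-Ctrl samples and 4.58, 4.40, 5.36 and 5.10 TPM in the Lv-Piezo1 samples, without overlap. Its log2 fold change was 0.73 (adjusted p = 1.2e-04 from limma, with a standard error of 0.09). Tnfrsf10b went from 6.46 ± 1.76 to 11.2 ± 2.05 TPM (SD, n = 4 each), with a log2 fold change of 0.72 (adjusted p = 0.0069 from limma). The other rises were those of Pidd1, Fas, Tradd, Tnfrsf1a and Traf2, and after median-ratio scaling those of Tnfrsf1a, Tradd and Traf2 no longer passed the test, leaving 4 rises beside falls of Cflar and Ripk1. With quantile normalization only that of Traf2 no longer passed, leaving 6 rises beside falls of Cflar, Ripk1 and Cradd. The death ligands Faslg and Tnfsf10 lay below the limit for testing, with Tnfsf10 at 0 in every sample.

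Of the 3 tested other inhibitor of apoptosis genes, Birc5 rose, Birc3 fell and Birc6 did not pass. Birc3, the paralog next to Birc2, measured 11.8, 12.4, 10.6 and 10.8 TPM in the Lv-Ctrl samples and 8.86, 8, 6.70 and 6.96 TPM in the Lv-Piezo1 samples. The groups did not overlap, and the log2 fold change was -0.52 (adjusted p = 8.9e-04 from limma, with a standard error of 0.09). Birc5, or survivin, which also acts in cell division, went from 5.11 ± 0.687 to 10.7 ± 0.567 TPM (SD, n = 4 each), with a log2 fold change of 0.95 (adjusted p = 1.9e-05 from limma).

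Antagonists of the inhibitors and other mitochondrial death factors counted 3 rises among 7 tested genes (beside 41.9% of all tested genes), those of Septin4, Htra2 and Aifm2. Septin4, of which a splice form called ARTS binds Xiap, rose from 32.2 ± 1.28 to 83.2 ± 2.17 TPM (SD, n = 4 each), or 1.34 in log2 units (adjusted p = 1.2e-08 from limma, with a standard error of 0.04). The gene level does not show which splice form this was. Htra2, a mitochondrial protease that also binds Xiap, had a log2 fold change of 0.26 (adjusted p = 0.0042 from limma), and Aifm2 had 0.19 (adjusted p = 0.0052 from limma). Neither passed after median-ratio scaling or quantile normalization. Cycs, which encodes cytochrome c and was named after its values were seen, had 129 ± 1.57 and 130 ± 6.63 TPM (SD, n = 4 each), and passed as lower with median-ratio scaling.

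Of the 7 genes listed as apoptosome regulators, 3 rose (beside 41.9% of all tested genes), and the largest rises were those of members with other main roles. Tubb2a, a tubulin, went from 77.3 ± 5.28 to 152 ± 4.38 TPM and Pycard, the adaptor of inflammasomes, from 2.35 ± 0.644 to 4.84 ± 0.947 TPM (SD, n = 4 each). Their log2 fold changes were 0.97 and 0.81 (adjusted p = 4.6e-07 and 0.0024 from limma). Hspb1, a small heat shock protein known to bind cytochrome c, also rose, with a log2 fold change of 0.68 (adjusted p = 8.5e-06 from limma). Aven and Apip, whose products bind Apaf1 or hinder its assembly, and the chaperone genes Hspa4 and Hsp90aa1 did not pass, although Hsp90aa1 passed as lower with median-ratio scaling and with quantile normalization.

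Caspase substrates and nucleases counted 5 rises and 2 falls among 10 tested genes (41.9% and 16.3% of all tested genes). Lmnb1, a nuclear lamin, rose from 6.31 ± 0.686 to 15.5 ± 0.679 TPM (SD, n = 4 each), or 1.18 in log2 units (adjusted p = 1.5e-06 from limma, with a standard error of 0.07). Sptan1, a spectrin, and Gsn, an actin-severing protein, had log2 fold changes of -0.26 and -0.18 (adjusted p = 0.0064 and 5.9e-04 from limma). The other rises were those of Parp1, Lmna, Dffb and Acin1. After median-ratio scaling, Lmna, Dffb and Acin1 no longer passed, leaving 2 rises and 3 falls, and Acin1 turned to -0.03. With quantile normalization only Dffb no longer passed, leaving 4 rises and 3 falls. Septin4 and Lmnb1 were the members of the 6 lists that also passed a change of at least 1, which 4.91% of all tested genes did as rises.

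**Figure D4:**
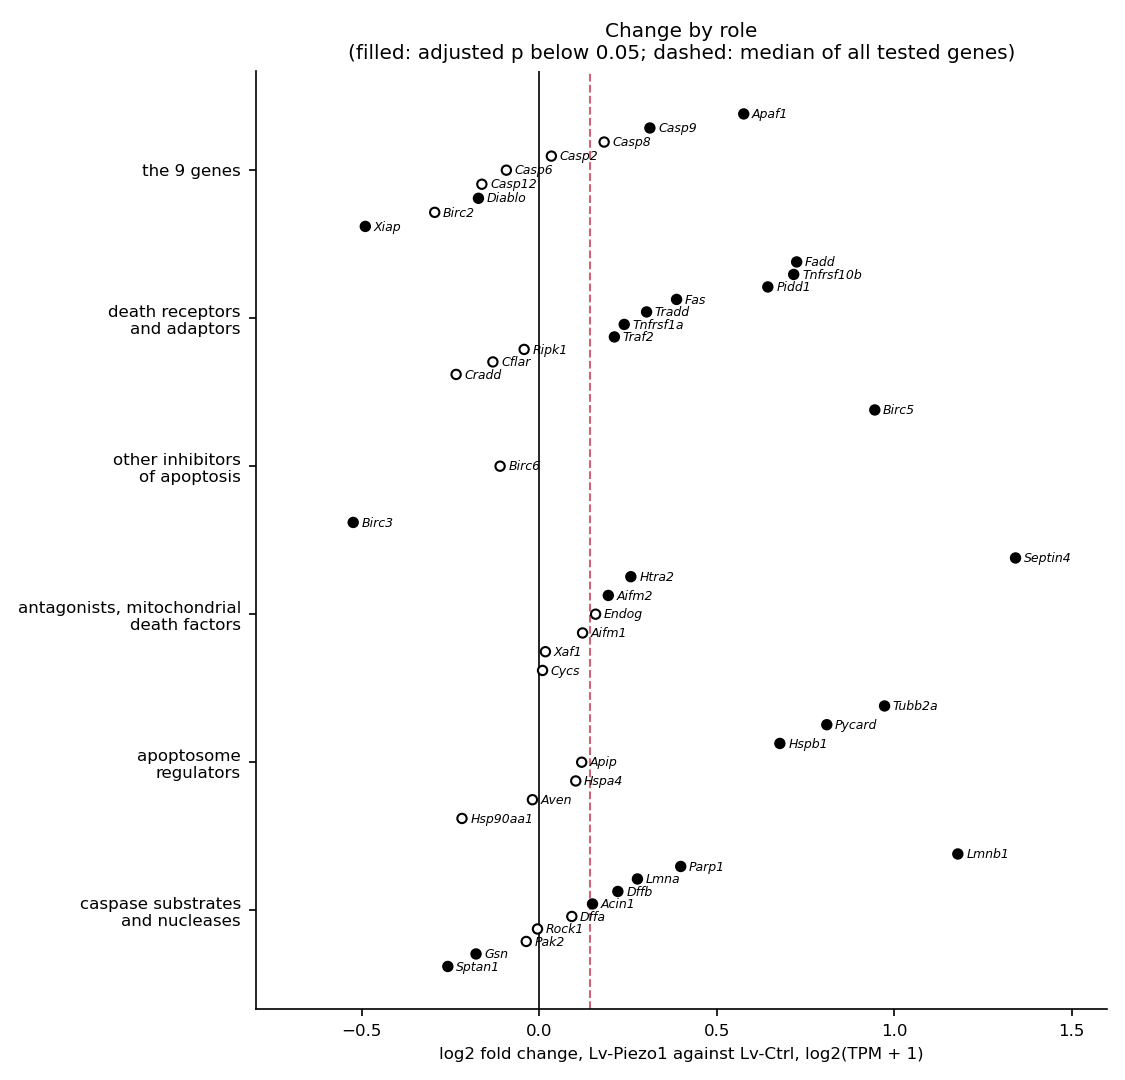
Log2 fold change (horizontal axis, log2(TPM + 1) scale, Lv-Piezo1 against Lv-Ctrl) of the 9 genes and of the tested genes of 5 other lists, by role, with filled points at an adjusted p below 0.05 in limma and a dashed line at the median of all tested genes (0.14). Filled points lie to the right in the death receptor and adaptor list, from Traf2 (0.21) to Fadd (0.73), while Xiap (-0.49) and Birc3 (-0.52) lie farthest to the left.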

How the data were processed

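RNA-seq was performed in 8 samples of AFCs under CMS, 4 labelled Lv-Ctrl and 4 labelled Lv-Piezo1, which the study describes as coming from 4 biological repeats, each an isolation of cells. The authors removed reads with adapter, poly-N or low quality, mapped the rest with HISAT2 to the rat genome and reconstructed transcripts with StringTie. The values deposited by the authors are TPM, rounded to 2 decimals, with the mean of each group in a further column, which was not used. The study's methods name FPKM, and the submitters' processing notes name DESeq2 and mm10, a mouse build, while the gene identifiers are those of rat. The build and annotation of the table are therefore unsure, and no coordinates of the table are given. A count model cannot be used on TPM, and the unknown depth allows no interval for counting error.

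A gene was tested where its TPM averaged 1 or more over the 8 samples. The groups were compared as log2(TPM + 1) with limma 3.58.1 in R 4.3.3 (empirical Bayes moderation with a trend, no block, all 8 samples). Calls used an adjusted p below 0.05, alone or with a change of 1 or more in log2 units, as in the study's threshold. For single genes an exact permutation test (two-sided, 70 relabelings) was added. The fit and this test took the 8 samples as independent. The groups may share isolations, and which samples would then pair is not stated. The fit was tested on simulated data. Named genes are the 9 genes, Piezo1, Cflar, and of each list every gene past both thresholds, otherwise the 2 largest rises and falls with an adjusted p below 0.05. Counts of a list also name its other genes. The tested genes of 1 of the 6 lists enter the counts over all lists and are otherwise not reported here. The 9 genes and the lists were chosen with earlier results of these data known. Promoters were taken from RefSeq (GRCr8), where Casp8 and Xiap had no entry. Each of these alternatives was tried alone, namely a pseudocount of 0.1, no filter, a minimum average of 5 TPM, scaling by median ratios, quantile normalization, removal of the mitochondrially encoded genes, moderation with no trend, a block for the replicate number, and leaving out each sample.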

Additional observations from a re-analysis of the deposited data

Results flagged for a closer look

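In 7 of 80 groups of 4 values examined, 1 sample stood apart from the other 3 by more than Dixon's 95% limit, and chance gives about 1 in 20. Among the 9 genes these were Casp9, with 10.5 TPM in Lv-Piezo1 replicate 2 as the low value, and Casp12, with 7.21 TPM in Lv-Piezo1 replicate 4 as the high value. Without these samples the log2 fold change was 0.34 for Casp9 (adjusted p = 0.0032 from limma) and -0.29 for Casp12 (adjusted p = 0.059 from limma). Cflar stood apart with 14.7 TPM in Lv-Piezo1 replicate 4, the sample in which Casp12 was high. The other low values were those of Fas with 39.2 TPM in Lv-Piezo1 replicate 1, Pidd1 with 2.91 TPM in Lv-Ctrl replicate 4 and Htra2 with 42.0 TPM in Lv-Ctrl replicate 2. Parp1 stood apart with a high value of 31.4 TPM in Lv-Piezo1 replicate 3.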

How the results depend on the processing

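Apaf1, Casp9, Xiap and Diablo kept their direction and an adjusted p below 0.05 in every alternative that tested them. A mean TPM of at least 5 left Apaf1, Xiap and Casp2 untested, so 1 of the 9 genes rose and 1 fell there, and 628 in place of 1005 of all tested genes passed both thresholds. Quantile normalization gave 5 falls among the 9 genes, with Casp2 at -0.18, Casp12 at -0.36 and Birc2 at -0.47 past the test, and median-ratio scaling had Casp2 at -0.11 and Birc2 at -0.46. Leaving out single samples moved Casp2 between -0.024 and 0.071 and Casp8 between 0.12 and 0.25. In the 6 other lists, 4 genes passed both thresholds with a pseudocount of 0.1 and 1 with quantile normalization, where 2 passed in the deposited values. Median-ratio scaling gave these lists 11 rises and 10 falls and quantile normalization 10 falls, and Acin1 turned to -0.027 with median-ratio scaling. For these counts and those of the 9 genes, the shares of rises and falls over all tested genes were not computed under these scalings. Among all genes past both thresholds, 64.1% were higher in the deposited values, 51.4% with median-ratio scaling and 48.8% with quantile normalization. No source used here states that equal replicate numbers mark the same repeat, and the numbers did not pair the samples in the data, with a correlation of deviations of -0.0303, -0.0576, -0.051 and -0.0124 for equal numbers. With the replicate number as a block, 6971 in place of 7626 genes had an adjusted p below 0.05 and Birc2, at -0.29, passed (adjusted p = 0.0062 from limma), and no other call among the 9 genes changed. The cause of these shifts was not tested.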

Other observations

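Some genes of the lists lay below the limit for testing, and their values are given without a test and were named after being seen. Casp1, an inflammatory caspase, measured 0.68, 0.99, 0.57 and 0.20 TPM in the Lv-Ctrl samples and 0.35, 0.34, 0.07 and 0.16 TPM in the Lv-Piezo1 samples. Naip5, an inhibitor of apoptosis protein that senses bacterial proteins in inflammasomes, measured 0.08, 0.11, 0.02 and 0.10 TPM in the Lv-Ctrl samples and 0.38, 0.24, 0.40 and 0.38 TPM in the Lv-Piezo1 samples. Casp14, a caspase of skin, and Birc7 were listed at 0 in all 8 samples.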
